A study of Rattus norvegicus with 16 samples.

Results

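Sutured rat corneas carried far more RNA for the plasminogen activator inhibitor *Serpinb2* than naïve corneas under all 3 eye drop treatments, by 33.8-fold to 67.5-fold, and *Serpine2*, *Tfpi2*, *Plau* and *Plaur* were higher with it. The text describes 9 genes of plasminogen activation, its inhibitors and tissue factor, namely *Plau*, *Plaur*, *Plat*, *Serpine2*, *Serpinb2*, *F3*, *Thbd*, *Tfpi* and *Tfpi2*. They were found by symbol, as every probe set (a group of short probes for 1 transcript) to which the probe annotation gives that gene and no other. This gave 14 probe sets of the 31042 tested, and 9 of the 14217 genes that could be read. A gene with several probe sets, as 4 of the 9 have, is represented by the one with the highest mean signal, and the others are described beside it. All of the changes given are changes in RNA, and no protein or enzyme activity was used.

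RNA of 16 corneas from male Wistar rats aged 12 to 16 weeks was measured on 1 GeneChip array each, in 4 groups of 4. In 3 groups the right cornea had received 2 sutures at 1.5 mm from the limbus on its temporal side, a model in which inflammation and new vessels follow, and drops 4 times per day for 2 days, which makes 8 drops. These drops held dexamethasone, a synthetic glucocorticoid, at 1 mg/ml, a rat specific anti-*Vegf* antibody, or goat IgG as the sham treatment; the labels give 20 mg/ml for both antibodies and the study's methods give µg/ml. Naïve corneas were neither sutured nor given drops, so the suture and the drops separate them together from every treated group, and a suture without drops was not among the groups. The labels of the IgG corneas name an anti-IgG antibody, whereas their treatment text names goat IgG. According to the study's methods the tissue ran from the sutures to the limbus and only RNA above a quality limit was taken to the arrays, and the labels speak of the cornea without the scleral rim.

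Plasmin, the protease that dissolves fibrin, is made from plasminogen by 2 activators, urokinase (*Plau*), which works at the cell surface on its receptor (*Plaur*), and tissue plasminogen activator (*Plat*), which works mainly on fibrin. Serpins hold these enzymes in check, among them protease nexin 1 (*Serpine2*) and plasminogen activator inhibitor 2 (*Serpinb2*), while *Tfpi2* encodes a Kunitz inhibitor of plasmin and other serine proteases that is found in extracellular matrix. Tissue factor (*F3*) starts coagulation and is abundant in epithelia, tissue factor pathway inhibitor (*Tfpi*) blocks this step, and thrombomodulin (*Thbd*) turns thrombin from a clotting enzyme into an activator of protein C. In the wounded cornea urokinase and plasmin are known for their part in epithelial migration and matrix turnover.

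Promoter windows were at hand for 6 of the 9 genes, as 7 windows of 300 bases from RefSeq (build GRCr8), each with 250 bases before the annotated transcript start and 50 after it. Those of *Serpinb2*, *Plaur* and *Tfpi2* are shown because these genes rose in all treated groups and each window holds the AP-1 letters TGANTCA, which occur in 3 of the 7 windows and in 7.33% of the 33469 windows of the same length in the table. The windows are chr13:24055771-24056070 on the plus strand for *Serpinb2*, chr1:89181113-89181412 on the plus strand for *Plaur* and chr4:32941227-32941526 on the minus strand for *Tfpi2*, and that of *Serpinb2* lies inside the gene as RefSeq bounds it. The window of *Tfpi2* lies partly inside its gene, whose bounds reach to 32941385, and its AP-1 letters stand in that part. Letters in capitals mark matches to the AP-1 motif, to TGTTCT and to the kappa B core GGANTTTCC, each searched on both strands. The 6 letters TGTTCT are only a part of the longer glucocorticoid receptor element. No marked match overlaps another:
Serpinb2: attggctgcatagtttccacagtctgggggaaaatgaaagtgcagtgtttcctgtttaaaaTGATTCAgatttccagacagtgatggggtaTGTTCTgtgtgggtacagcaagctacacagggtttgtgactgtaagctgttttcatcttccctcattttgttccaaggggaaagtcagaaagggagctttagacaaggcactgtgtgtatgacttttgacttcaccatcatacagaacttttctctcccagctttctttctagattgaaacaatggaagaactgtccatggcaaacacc
Plaur: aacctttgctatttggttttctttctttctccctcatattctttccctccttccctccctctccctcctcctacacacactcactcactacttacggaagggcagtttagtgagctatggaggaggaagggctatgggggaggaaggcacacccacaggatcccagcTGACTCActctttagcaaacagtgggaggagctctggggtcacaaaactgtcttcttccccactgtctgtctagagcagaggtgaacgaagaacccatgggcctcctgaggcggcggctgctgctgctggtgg
Tfpi2: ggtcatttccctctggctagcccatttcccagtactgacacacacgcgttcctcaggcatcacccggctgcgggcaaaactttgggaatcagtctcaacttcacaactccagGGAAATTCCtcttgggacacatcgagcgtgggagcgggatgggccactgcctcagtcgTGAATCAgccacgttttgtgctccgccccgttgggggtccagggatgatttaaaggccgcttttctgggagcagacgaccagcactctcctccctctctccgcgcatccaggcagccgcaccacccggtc

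The letters TGTTCT stand in the *Serpinb2* window, 159 bases before the start, and in 20.7% of all windows. The kappa B core stands in the *Tfpi2* window, 138 bases before the start, and in 1.28% of all windows. The AP-1 letters begin 189 bases before the start in *Serpinb2*, 83 in *Plaur* and 80 in *Tfpi2*. The windows of *Plau* and *Serpine2*, which also rose, hold none of these letters and match only the Sp1 box GGGCGG, 3 times in *Plau* and 6 times in *Serpine2*, where some matches overlap; 33.1% of all windows hold it, and 1 stands unmarked in the *Tfpi2* window. Of the 2 windows of *Tfpi*, 1 holds an Sp1 box and the other none of the 6 motifs searched, which also included the CRE TGACGTCA (1.83% of all windows) and the TATA box TATAAA (14.2%), found in no window of these genes. A match describes the letters of a window and not the binding of a factor.

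Relative to naïve corneas, 5 of the 9 genes were higher in each treated group, and they were the same 5, *Serpinb2*, *Serpine2*, *Tfpi2*, *Plau* and *Plaur*. A gene counted as called at an adjusted p under 0.05 (limma, Benjamini-Hochberg over all probe sets) with a 1.5-fold or larger change, and 8.19% of all genes were called higher with dexamethasone, 6.82% with anti-*Vegf* and 6.32% with IgG. With dexamethasone 1 gene was called lower (*Tfpi*), with anti-*Vegf* 2 (*Tfpi* and *F3*) and with IgG 0, against 4.45%, 5.94% and 5.02% of all genes. The IgG count of 0 leaves out *Tfpi* and *Thbd*, which were lower at an unadjusted p under 0.05. *Tfpi* missed the call by its fold (adjusted p = 0.021), and *Thbd* by its adjusted p (0.081). The median log2 change of the 9 genes was 1.24 with dexamethasone, 1.17 with anti-*Vegf* and 1.42 with IgG, and the median of all genes lay between -0.0071 and 0.0041. The 3 comparisons share the 4 naïve arrays. In tissue of mixed cells, fewer cells of a type and less RNA per cell cannot be told apart, and p-values measure the spread between these corneas.

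**Figure D1:**
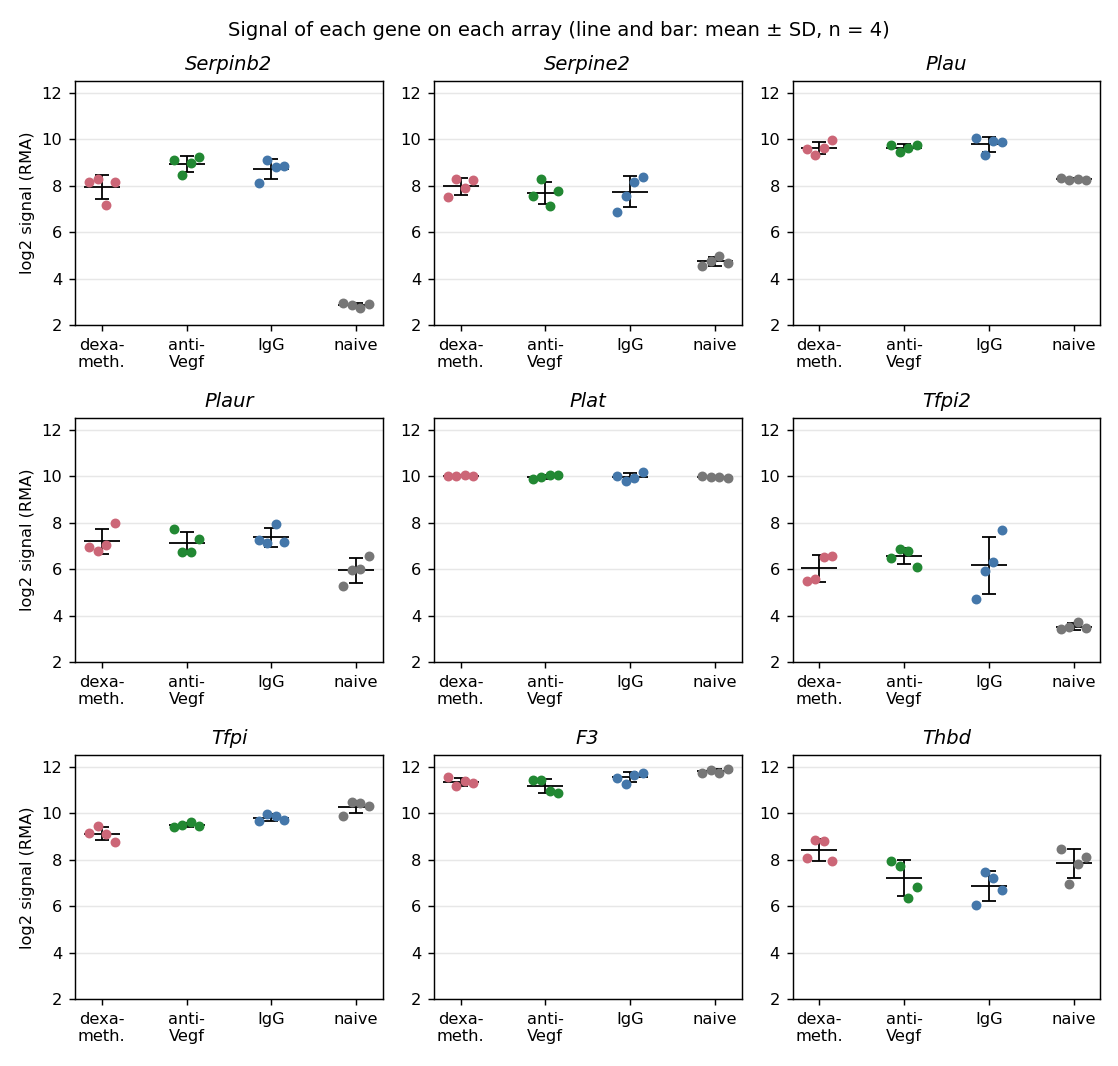
Log2 RMA signal (y axis) of each of the 9 genes on each of 16 arrays, with dexamethasone, anti-Vegf, IgG and naïve corneas from left to right, points for arrays, and the line and bar for mean ± SD (n = 4). The treated arrays of Serpinb2, Serpine2, Plau, Plaur and Tfpi2 all lie above the naïve arrays, Plat is level, and Serpinb2 has 1 low dexamethasone array at 7.18.

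*Serpinb2*, the inhibitor known from monocytes and stressed epithelia, changed most (1368487_at). Its log2 signal was 8.14, 8.28, 7.18 and 8.16 with dexamethasone, 9.10, 8.45, 8.99 and 9.22 with anti-*Vegf* and 8.12, 9.12, 8.80 and 8.83 with IgG, against 2.93, 2.88, 2.74 and 2.89 in naïve corneas. All 12 treated arrays thus lay above every naïve array by more than 4 log2 units. The log2 change was 5.08 (33.8-fold) with dexamethasone, 6.08 (67.5-fold) with anti-*Vegf* and 5.86 (58.0-fold) with IgG, each with a standard error of 0.24 and an adjusted p of 2.7e-09, 3.4e-10 and 6e-10 in that order (limma). Among 14217 genes these were the 6th, the 4th and the 3rd largest rises. The 4 naïve signals lay under 5.94, the 40th percentile of all signals, where a fold depends on the background correction.

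*Serpine2*, an inhibitor of urokinase, plasmin and thrombin, had the next largest change with dexamethasone and with IgG (1372440_at). It had signals of 7.49, 8.27, 7.91 and 8.24 with dexamethasone, 7.56, 8.29, 7.11 and 7.78 with anti-*Vegf* and 6.88, 7.56, 8.15 and 8.38 with IgG, against 4.53, 4.76, 4.98 and 4.69 in naïve corneas. Treated and naïve arrays did not overlap, and the treated groups overlapped one another. The log2 change was 3.24 (9.44-fold, adjusted p = 1.4e-06) with dexamethasone, 2.94 (7.69-fold, adjusted p = 3.4e-06) with anti-*Vegf* and 3.00 (8.01-fold, adjusted p = 3e-06) with IgG, with a standard error of 0.29. Differences between treatments spanned -0.06 to 0.29 log2 units, and their 95% intervals ran from -0.67 to 0.91.

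*Tfpi2*, the matrix-bound Kunitz inhibitor, was high in all treated groups with a wide spread (1377340_at). Its signals were 5.50, 5.59, 6.53 and 6.57 with dexamethasone, 6.50, 6.87, 6.78 and 6.10 with anti-*Vegf* and 4.73, 5.94, 6.32 and 7.71 with IgG, against 3.42, 3.51, 3.74 and 3.45 in naïve corneas. The 4 IgG arrays alone span nearly 3 log2 units, and their lowest is still above every naïve array. The log2 change was 2.52 (adjusted p = 0.00058) with dexamethasone, 3.03 (adjusted p = 0.00011) with anti-*Vegf* and 2.65 (adjusted p = 0.00037) with IgG, each with a standard error of 0.44. All naïve signals of *Serpine2* and *Tfpi2*, too, were under the 40th percentile.

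Urokinase and its receptor were both higher in sutured, treated corneas than in naïve ones, and tissue plasminogen activator was not. *Plau* (1387675_at) had signals of 9.56, 9.31, 9.62 and 9.97 with dexamethasone, 9.75, 9.43, 9.60 and 9.76 with anti-*Vegf* and 10.06, 9.32, 9.91 and 9.86 with IgG, against 8.32, 8.24, 8.29 and 8.23 in naïve corneas. Naïve corneas were nearly identical, and each treated array stood about 1 log2 unit or more above them. The log2 change of *Plau* was 1.35 (2.54-fold, adjusted p = 1.1e-05) with dexamethasone, 1.37 (2.58-fold, adjusted p = 8.4e-06) with anti-*Vegf* and 1.52 (2.87-fold, adjusted p = 3.3e-06) with IgG, with a standard error of 0.15. Its second probe set (1398287_at) was called as well, with log2 changes of 1.15, 1.57 and 2.01 in the same order (standard error 0.34), and there the dexamethasone arrays overlapped the naïve ones.

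*Plaur*, which anchors urokinase on leukocytes and migrating epithelium, had signals of 6.96, 6.79, 7.04 and 8.00 with dexamethasone, 7.71, 6.76, 6.76 and 7.30 with anti-*Vegf* and 7.26, 7.11, 7.97 and 7.17 with IgG, against 5.27, 5.99, 6.03 and 6.56 in naïve corneas (1387269_s_at). Treated arrays did not overlap naïve ones, though they overlapped one another, and the highest naïve cornea (6.56) came close to the lowest anti-*Vegf* corneas (6.76). The log2 change was 1.24 (2.36-fold, adjusted p = 0.0073) with dexamethasone, 1.17 (2.26-fold, adjusted p = 0.009) with anti-*Vegf* and 1.42 (2.67-fold, adjusted p = 0.0026) with IgG (standard error 0.30). Without the naïve arrays Cont_1 and Cont_2R, whose *Actb* control signals fell off most towards the 5′ end, the change with dexamethasone was 0.91 (adjusted p = 0.084) and with anti-*Vegf* 0.84 (adjusted p = 0.1), and neither was called. The other probe set of *Plaur* (1371286_at) was under the 40th percentile on every array and called in no comparison, with log2 changes of 0.12, 0.12 and 0.36 for dexamethasone, anti-*Vegf* and IgG.

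*Plat*, the fibrin-directed activator, had nearly the same signal everywhere, between 10.01 and 10.06 with dexamethasone, 9.88 and 10.06 with anti-*Vegf* and 9.78 and 10.20 with IgG, against 9.92 to 9.99 in naïve corneas (1367800_at). Its log2 change was 0.06 with dexamethasone (95% interval -0.11 to 0.23), 0.01 with anti-*Vegf* (-0.16 to 0.18) and 0.02 with IgG (-0.15 to 0.19). A change of *Plat* beyond these bounds is outside the intervals, whereas the intervals of *Plau* begin at 1.03, 1.05 and 1.21 in the same order.

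**Figure D2:**
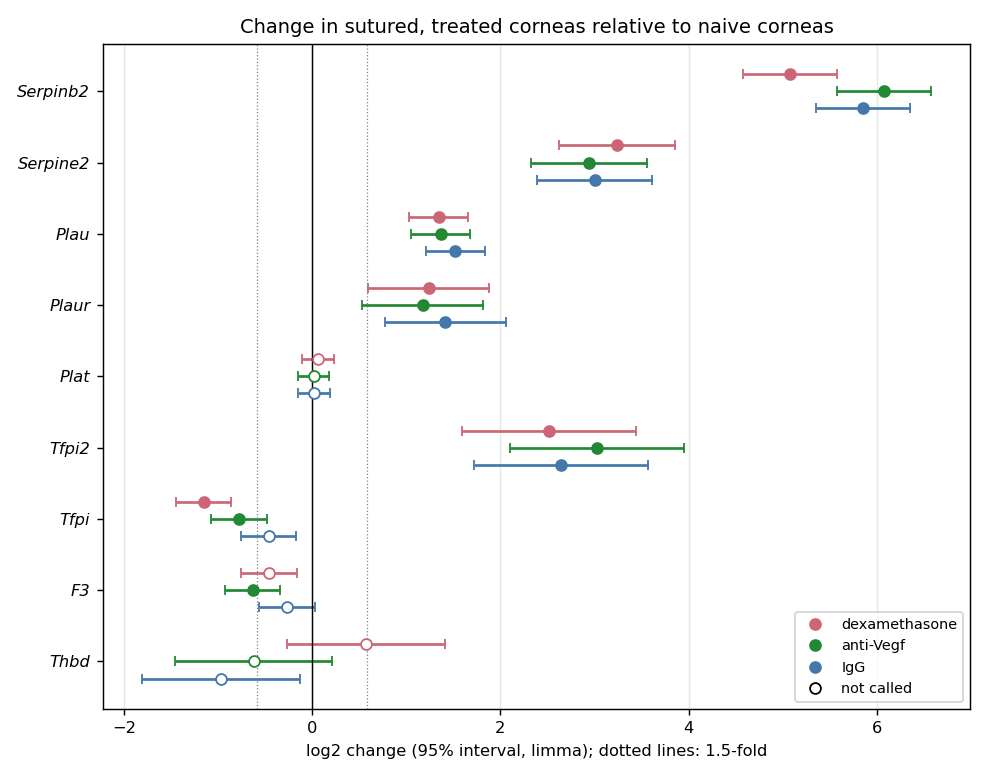
Log2 change relative to naïve corneas (x axis, point with 95% interval from limma, n = 4 arrays per group) of 9 genes, with dexamethasone, anti-Vegf and IgG from top to bottom within each gene. Filled points were called, open points were not, and the dotted lines mark 1.5-fold. Serpinb2 lies at 5.08 to 6.08, Plat at 0.01 to 0.06, and only Thbd has changes of both signs.

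On the side of tissue factor the changes were smaller. *F3*, whose product starts coagulation, had signals of 11.56, 11.17, 11.41 and 11.31 with dexamethasone, 11.45, 11.46, 10.98 and 10.87 with anti-*Vegf* and 11.54, 11.26, 11.66 and 11.74 with IgG, against 11.74, 11.88, 11.74 and 11.92 in naïve corneas (1369182_at). The dexamethasone and anti-*Vegf* arrays lay below all naïve arrays, and the IgG arrays touched them. With anti-*Vegf* the log2 change was -0.63 (1.55-fold lower, standard error 0.14, adjusted p = 0.0029), just past the fold limit, and it fell short of that limit without the anti-*Vegf* array F6 (-0.56) or F7 (-0.53). With dexamethasone it was -0.46 (adjusted p = 0.024), under the fold limit, and with IgG -0.27 (adjusted p = 0.17).

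*Tfpi*, the inhibitor of the tissue factor pathway, was lower in treated corneas (1368323_at). Its signals were 9.16, 9.45, 9.13 and 8.77 with dexamethasone, 9.40, 9.51, 9.62 and 9.47 with anti-*Vegf* and 9.69, 9.97, 9.90 and 9.70 with IgG, against 9.90, 10.48, 10.43 and 10.31 in naïve corneas. The dexamethasone and anti-*Vegf* arrays lay below all naïve arrays, whereas IgG overlapped the naïve array Cont_1. The log2 change was -1.15 (2.22-fold lower, adjusted p = 2.6e-05) with dexamethasone and -0.78 (1.71-fold lower, adjusted p = 0.00062) with anti-*Vegf*, both called, and -0.46 (1.38-fold lower, adjusted p = 0.021) with IgG, under the fold limit (standard error 0.14). The second probe set (1389780_at) was called lower in all 3 groups, by -1.40, -1.43 and -1.22 in the same order (standard error 0.19), with no overlap between treated arrays and naïve ones.

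*Thbd*, the thrombin receptor of endothelium and epithelium, was the gene whose change differed in sign between treatments, although none of its 3 changes was called (1375951_at). It had signals of 8.07, 8.85, 8.80 and 7.94 with dexamethasone, 7.97, 7.73, 6.34 and 6.85 with anti-*Vegf* and 6.06, 7.50, 7.24 and 6.71 with IgG, against 8.47, 6.96, 7.84 and 8.11 in naïve corneas. Naïve arrays spread over 1.5 log2 units and overlapped every treated group. The log2 change was 0.57 (adjusted p = 0.36) with dexamethasone, -0.62 (adjusted p = 0.28) with anti-*Vegf* and -0.97 (adjusted p = 0.081) with IgG, with a standard error of 0.39; without the naïve array Cont_2R the change with IgG was -1.26 and called (adjusted p = 0.03). The second probe set (1368901_at) rose by 0.92 with dexamethasone relative to naïve corneas (standard error 0.27, adjusted p = 0.02), with overlapping arrays, and changed by -0.09 with anti-*Vegf* and -0.39 with IgG, neither of them called. The third (1368900_at) was under the 40th percentile on all arrays, with changes of 0.10, -0.09 and -0.01.

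The treatments were then compared with one another, where an adjusted p under 0.05 alone made a call. Between dexamethasone and IgG, 1 of the 9 genes was called higher with dexamethasone (*Thbd*) and 2 lower (*Tfpi* and *Serpinb2*), against 7.41% and 3.16% of all genes. Between dexamethasone and anti-*Vegf*, 0 were called higher and 1 lower (*Serpinb2*), against 4.63% and 2.5% of all genes. An unadjusted p under 0.05 was found there for 3 of the 9, and for 3234 of all 14217 genes. Between anti-*Vegf* and IgG limma called 0 of the 9 and 0% of all genes in each direction; at an unadjusted p under 0.05 there were 942 genes, among them *F3* (-0.37) and *Tfpi* (-0.31). These comparisons share groups with each other.

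*Thbd* stood 1.54 log2 units (2.91-fold) higher with dexamethasone than with IgG, with a standard error of 0.39 and an adjusted p of 0.022 (limma), the 20th largest rise of 14217 genes. All 4 dexamethasone arrays, from 7.94 up, lay above all 4 IgG arrays, which reached 7.50. The second probe set showed 1.31 (adjusted p = 0.0063), again without overlap, and the third 0.11 (adjusted p = 0.44). On the second probe set 0 dexamethasone signals were under the 40th percentile, against 3 with anti-*Vegf*, all 4 with IgG and 3 in naïve corneas. Against anti-*Vegf* the difference was 1.19 (adjusted p = 0.082), not called, and 1.01 on the second probe set, called (adjusted p = 0.034). The dexamethasone against IgG call of *Thbd* was lost without the IgG array F17 (1.27, adjusted p = 0.07) or F23 (1.49, adjusted p = 0.053), and without the dexamethasone array F26 (1.40, adjusted p = 0.067) or F27 (1.41, adjusted p = 0.067).

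*Serpinb2* was 1.00 log2 unit (2.00-fold) lower with dexamethasone than with anti-*Vegf* (standard error 0.24, adjusted p = 0.02), and these arrays did not overlap. Relative to IgG it was lower by 0.78 log2 units, or 1.71-fold (adjusted p = 0.048), and here the arrays overlapped. The dexamethasone array F27 had the lowest *Serpinb2* signal of the treated corneas. Without it the difference from IgG was -0.53 (adjusted p = 0.14) and not called. That call was also lost without the IgG array F19, F22 or F23 or the dexamethasone array F25, with adjusted p-values of up to 0.14, and the difference from anti-*Vegf* without F1x, F6 or F7, with adjusted p-values of up to 0.058. The study's own tables list *Serpinb2* among genes picked on these arrays for dexamethasone against IgG, so that difference is no independent observation. With an ordinary variance in place of the moderated one, neither *Serpinb2* difference was called (adjusted p = 0.095 from IgG and 0.0503 from anti-*Vegf*), nor was that of *Thbd* from IgG (0.055). The *Serpinb2* difference from IgG was also not called with trend and robust moderation (0.052) or with the 2 groups fitted alone (0.11), and the difference from anti-*Vegf* not with its 2 groups alone (0.055).

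*Tfpi* was lower with dexamethasone than with IgG by 0.69 log2 units (1.61-fold, adjusted p = 0.0057), with no overlap between the arrays, and this call held without any 1 array. Its second probe set differed by -0.18 (95% interval -0.58 to 0.21, limma, adjusted p = 0.59) and was not called. This interval overlaps that of the brighter probe set, -0.98 to -0.39, and a difference between the probe sets was not tested. Both probe sets were lower with dexamethasone than in naïve corneas. With the mean of both probe sets the difference was -0.44 and not called (adjusted p = 0.065).

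**Figure D3:**
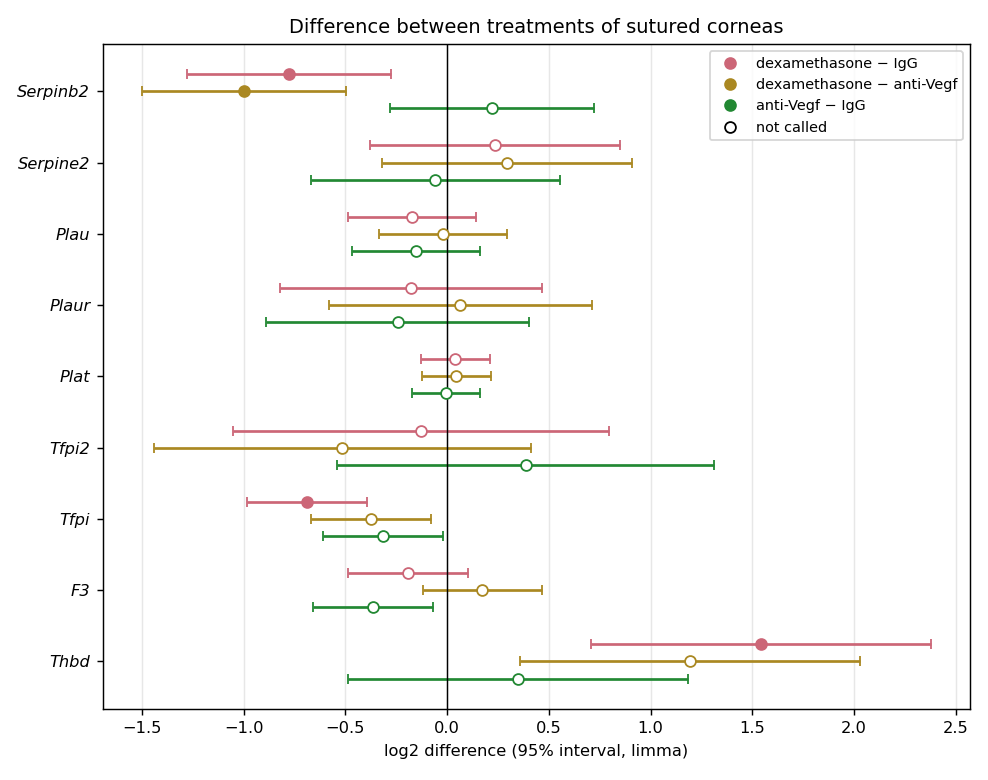
Log2 difference between treatments of sutured corneas (x axis, point with 95% interval from limma, n = 4 arrays per group) for dexamethasone minus IgG, dexamethasone minus anti-Vegf and anti-Vegf minus IgG, from top to bottom within each of 9 genes; filled points were called. Serpinb2 and Tfpi lie below 0 and Thbd at 1.54 for dexamethasone minus IgG, and no point of anti-Vegf minus IgG is filled.

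For the other genes the treatments were compared by their intervals. On its brighter probe set *Plau* differed by -0.17 between dexamethasone and IgG (95% interval -0.49 to 0.14) and by -0.02 between dexamethasone and anti-*Vegf* (-0.33 to 0.29), and *Plat* by 0.04 in both (-0.13 to 0.21 and -0.12 to 0.21). The second probe set of *Plau* gave a larger difference between dexamethasone and IgG, -0.86 (95% interval -1.58 to -0.13, adjusted p = 0.13), which was not called. The dim second probe set of *Plaur* gave -0.24 there (-0.47 to -0.013, adjusted p = 0.18). On the brighter probe set of *Plaur* the intervals ran from -0.82 to 0.47 and from -0.58 to 0.71, and those of *Tfpi2* the widest among these genes, from -1.05 to 0.80 and from -1.44 to 0.41. Between anti-*Vegf* and IgG the difference of *Serpinb2* was 0.22 (-0.28 to 0.72).

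**Figure D4:**
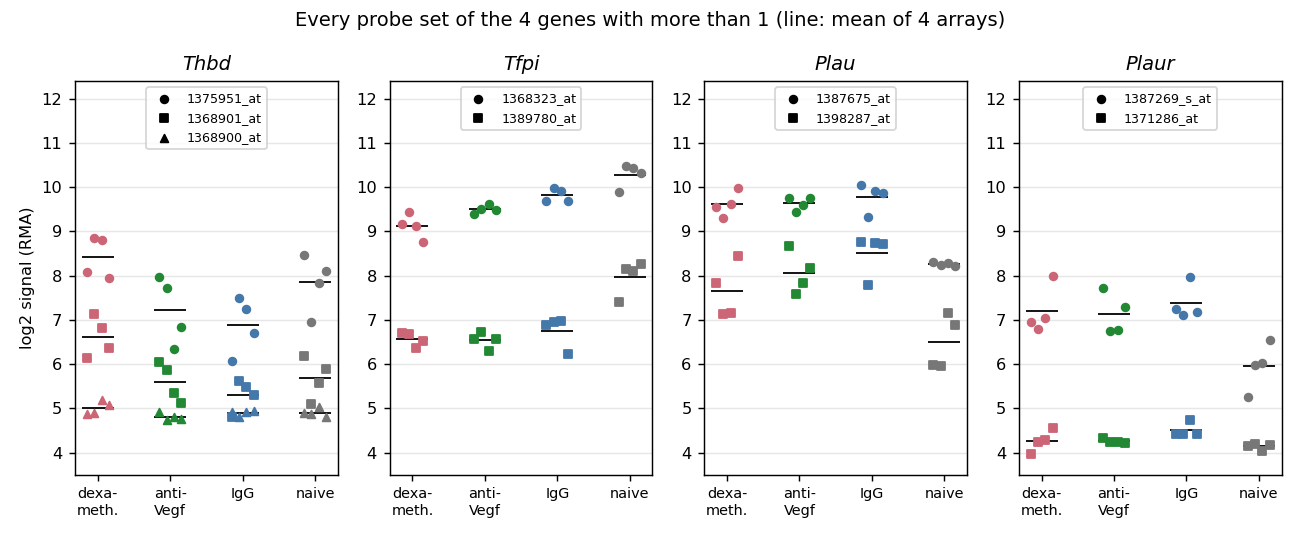
Log2 RMA signal (y axis) of every probe set of the 4 genes that have more than 1, on each of 16 arrays, with dexamethasone, anti-Vegf, IgG and naïve corneas from left to right; marker shapes stand for probe sets and lines for means of 4 arrays. Both brighter probe sets of Thbd are higher with dexamethasone than with IgG, while the second of Tfpi has nearly the same level in all 3 treated groups.

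Technical measures moved with the groups. The poly-A control transcripts, which are added to the RNA before labelling, averaged 5.19 ± 0.15 with dexamethasone, 7.02 ± 0.11 with anti-*Vegf*, 7.22 ± 0.27 with IgG and 5.11 ± 0.14 in naïve corneas (SD, n = 4 each), and the exact two-sided permutation p was 0.029, the smallest possible, for dexamethasone against either antibody and for either antibody against naïve corneas. The 5′ minus 3′ signal of *Gapdh*, which falls as RNA degrades, was -0.39 ± 0.07 with dexamethasone, -0.11 ± 0.04 with anti-*Vegf*, -0.08 ± 0.05 with IgG and -0.30 ± 0.15 in naïve corneas. That of *Actb* was -1.17 ± 0.23 with dexamethasone, -0.87 ± 0.25 with anti-*Vegf*, -0.71 ± 0.08 with IgG and -1.28 ± 0.51 in naïve corneas. Hybridization controls differed less, with 11.3 ± 0.13 with dexamethasone, 11.1 ± 0.077 with anti-*Vegf*, 11.1 ± 0.032 with IgG and 11.3 ± 0.085 in naïve corneas (IgG against naïve, exact permutation p = 0.029). The part of these measures cannot be told apart from that of the treatment, neither between dexamethasone and the antibodies nor between the antibodies and naïve corneas. Between dexamethasone and naïve corneas the poly-A signal differed by 0.08 and that of *Gapdh* by -0.08. Array medians lay between 6.55 and 6.62.

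Across the 16 arrays the genes that rose followed each other, and most of this came from the step between naïve and treated corneas. Pearson's r was 0.93 between *Serpinb2* and *Serpine2*, and 0.14 after each group's mean was removed. *Serpine2* and *Tfpi2* had an r of 0.92, and 0.68 within groups, while *Plau* and *Plaur* had 0.85, and 0.52 within groups. *Plau* and *Tfpi* ran opposite to each other, with -0.74 over all arrays and -0.66 within groups. These are descriptions over arrays that share the groups.

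The 2 genes of the whole array with the pattern most like each gene, by the same r over 16 arrays, were *Tpm2* (0.99) and *Ccl2* (0.98), a monocyte chemokine, for *Serpinb2*, and *Fcer1g* (0.98) and *Srgn* (0.97), both of leukocytes, for *Serpine2*. For *Tfpi2* they were *Pf4* (0.95), a platelet and megakaryocyte chemokine, and *Bcl2a1* (0.94). *Tgfbi* (0.96) and *Icam1* (0.96) were closest to *Plau*, and *Cenpv* (0.94) and *Ptk7* (0.92) to *Plaur*. The other genes had looser partners, with *Orc3* (0.92) and *Wdr90* (0.87) for *Thbd*, *Cpt1a* (0.91) and *Gpnmb* (0.88) for *F3*, *Slurp1* (0.88) and *Angpt2* (0.88) for *Tfpi*, and *Vtn* (0.82) and *Ecel1* (0.80) for *Plat*. All of these r values include the step between naïve and treated corneas, and for these partners none was computed within groups.

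Of 15 other measured genes of the plasminogen system, 2 rose and 1 fell with dexamethasone relative to naïve corneas. With anti-*Vegf* 0 rose and 1 fell, and with IgG 1 rose and 1 fell. Among all genes 8.19%, 6.82% and 6.32% rose and 4.45%, 5.94% and 5.02% fell with dexamethasone, anti-*Vegf* and IgG. The median log2 change of the list lay between 0.02 and 0.05. *Serpini1*, neuroserpin, an inhibitor of tissue plasminogen activator, fell in all 3 groups, with log2 changes of -1.25, -1.01 and -0.85 for dexamethasone, anti-*Vegf* and IgG. *A2m*, a broad protease trap, rose with dexamethasone (1.02) and was not called with anti-*Vegf* (0.10) or IgG (0.28), and it was higher there than with IgG (0.75, adjusted p = 0.0057) and anti-*Vegf* (0.92, adjusted p = 0.0025). *Lrp1*, the receptor that clears activator and inhibitor complexes, rose with dexamethasone (0.64) and differed from anti-*Vegf* (0.63, adjusted p = 0.039), and *Eno1*, a plasminogen receptor on cell surfaces, rose with IgG (0.93).

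Among other proteins that hold coagulation in check, listed with their relative *Gas6*, 3 of 10 measured genes rose in every treated group. Of all genes 8.19%, 6.82% and 6.32% rose with dexamethasone, anti-*Vegf* and IgG. *Serping1*, the inhibitor of C1 and kallikrein, rose by 3.05 with dexamethasone, 2.32 with anti-*Vegf* and 2.62 with IgG. *Procr*, the endothelial receptor of protein C, rose by 1.76, 1.95 and 1.97, and *Pros1*, the cofactor protein S, by 1.58, 1.34 and 1.43 in the same order. *Gas6*, a relative of protein S, fell by 0.83 with anti-*Vegf* and by 0.60 with IgG and was not called with dexamethasone, where it was higher than with anti-*Vegf* (0.78, adjusted p = 0.0055) and IgG (0.54, adjusted p = 0.026). *Anxa5*, which binds exposed phosphatidylserine, was higher with dexamethasone than with anti-*Vegf* (0.63) and IgG (0.61), and *Serping1* than with anti-*Vegf* (0.73). *Serping1* is another gene that the study lists from these arrays.

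Of 13 coagulation genes, 3 rose and 0 fell with dexamethasone, and 2 rose and 1 fell with anti-*Vegf* and with IgG, while 8.19%, 6.82% and 6.32% of all genes rose and 4.45%, 5.94% and 5.02% fell. *Fgb*, a fibrinogen chain, rose by 1.57, 0.98 and 1.49 and *F5* by 1.34, 0.91 and 1.36 for dexamethasone, anti-*Vegf* and IgG. *F13a1*, the fibrin cross-linking enzyme of macrophages and platelets, rose with dexamethasone (1.21), and *Vwf*, of endothelium and platelets, fell by 0.75 with anti-*Vegf* and by 0.71 with IgG, and its change of -0.56 with dexamethasone (adjusted p = 0.0064) was under the fold limit. Between treatments *Vkorc1* was lower with dexamethasone than with IgG (-0.35) and *Ggcx* higher than with anti-*Vegf* (0.40), both of the vitamin K cycle. Of the 4 receptors cleaved by thrombin and related proteases, *F2r* rose in all groups (1.39, 1.38 and 1.56) and *F2rl2* with dexamethasone (1.00) and IgG (0.64). *Serpinb10* and *Serpinb3*, relatives of *Serpinb2* in the clade B family, rose in all groups, by 3.96, 3.92 and 3.81 for the first and by 2.15, 2.62 and 2.59 for the second. Of 6 clade B serpins measured, 2 rose with dexamethasone, 4 with anti-*Vegf* (*Serpinb1a* 0.64 and *Serpinb7* 0.76 as well) and 3 with IgG (*Serpinb1a* 0.73). With dexamethasone *Serpinb1a* changed by 0.58 (adjusted p = 0.00024), just under the fold limit, and its difference from IgG was -0.15 (adjusted p = 0.34). Naïve means of *F13a1* (4.1), *Fgb* (4.57), *F5* (5.20), *F2rl2* (5.10) and *Serpinb3* (4.95) were under 5.94, the 40th percentile of all signals. The mean of *F13a1* with dexamethasone (5.30), of *Fgb* with anti-*Vegf* (5.55) and of *F2rl2* with IgG (5.74) lay under it too.

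**Figure D5:**
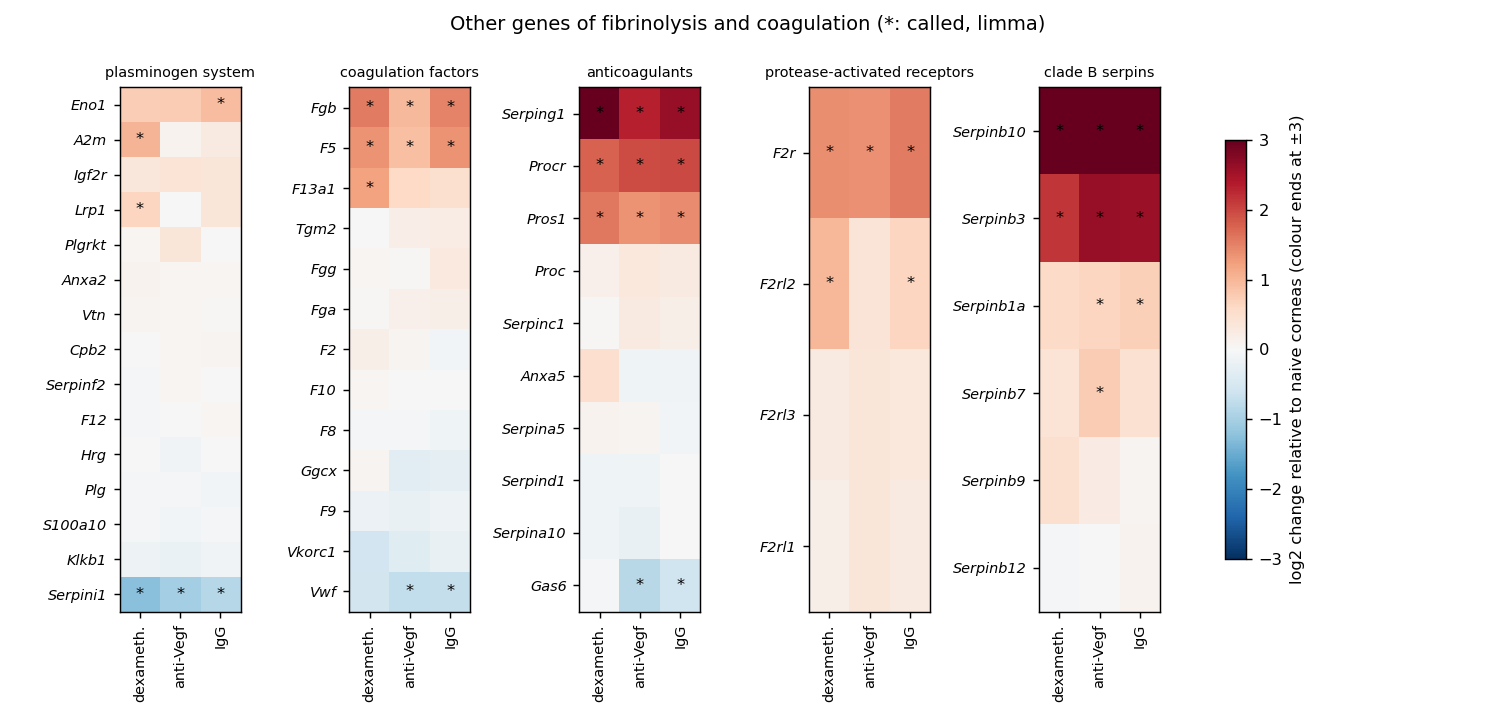
Log2 change relative to naïve corneas (colour, ending at ±3) of the measured genes of 5 lists, with dexamethasone, anti-Vegf and IgG from left to right in each panel and an asterisk for called genes. Serpini1 is the one called gene of the plasminogen list that fell. Called in all 3 columns are Serpini1, Serping1, Procr, Pros1, F5, Fgb, F2r, Serpinb3 and Serpinb10.

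Some markers of neutrophils and of monocytes and macrophages were also higher in treated corneas. Of all genes, 8.19%, 6.82% and 6.32% were called higher and 4.45%, 5.94% and 5.02% lower with dexamethasone, anti-*Vegf* and IgG. Of 6 neutrophil genes, 4 rose in every treated group (*S100a8*, *S100a9*, *Csf3r* and *Cxcr2*), and the mean signal of the list was 7.23 to 8.97 with dexamethasone, 8.15 to 8.31 with anti-*Vegf* and 8.30 to 8.66 with IgG, against 5.42 to 5.50 in naïve corneas. Of 8 monocyte and macrophage genes, 4 rose with dexamethasone, 4 with anti-*Vegf* and 5 with IgG, and the list averaged 7.46 to 8.24, 7.44 to 7.72 and 7.42 to 8.18, against 6.36 to 6.78 in naïve corneas. Of 6 platelet genes only *Pf4* rose, by 2.03, 2.31 and 2.09, and of 7 genes of vessel endothelium 0 rose and 1 fell (*Kdr*, by 1.15 with anti-*Vegf*). The part of these cells in the rise of *Serpinb2*, *Serpine2*, *Tfpi2*, *Plau* and *Plaur* was not tested. On the dexamethasone array F27, where *Serpinb2* was lowest, the neutrophil mean was 8.04, and the lowest neutrophil mean was on F25, with 7.23. The 7 genes of corneal epithelium averaged 13.7 to 13.9 on every array, and *Krt12* changed by -0.06, -0.07 and -0.06 for dexamethasone, anti-*Vegf* and IgG. Of these genes *Krt14* alone was called, higher by 1.55, 1.69 and 1.62, while *Pax6* (-0.54, -0.45 and -0.44), *Aldh3a1* (-0.25, -0.37 and -0.27) and *Tkt* (-0.22, -0.33 and -0.32) had adjusted p-values under 0.05 and stayed under the fold limit. Of 4 keratocyte genes *Aldh1a1* fell in all groups (-0.75, -1.45 and -1.19) and *Ptgds* with anti-*Vegf* (-1.18).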

How the data were processed

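Each deposited value is a log2 signal of 1 probe set on 1 array, computed by the authors with RMA in Affymetrix Expression Console; RMA corrects background, puts all arrays on 1 distribution and sums probes, so a change common to most genes is removed. They were used as deposited, with 0 sample columns left out. Without the 57 control probe sets, 31042 remained, to which limma 3.58.1 in R 4.3.3 was fitted with 1 mean per group over all 16 arrays (12 residual degrees of freedom), empirical Bayes moderation and Benjamini-Hochberg adjustment. Of these probe sets 20826 carry 1 symbol, 436 several and 9780 none. Following the paper's methods, the limits against naïve corneas were 0.05 for the adjusted p and 1.5 for the fold change; between treatments the adjusted p alone was used.

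The 9 genes, the lists and the motifs were chosen with earlier results of these data known. Named genes are all 9 with every probe set, up to 4 called genes of largest change per list and comparison with naïve corneas, all called list genes between treatments, and the 2 genes of highest r. Lists that the report does not give in full gave these calls: of 5 conjunctiva genes *Krt13* rose with IgG (0.72), of 5 pigment genes *Dct* fell with dexamethasone (-1.29) and anti-*Vegf* (-1.25) and *Tyrp1* rose with IgG (1.31), and of 2 red cell genes 0 were called. Between treatments *Cd68* was lower (-0.86 and -0.81) and *Lyz2* higher (0.72 and 0.69) with dexamethasone than with IgG and anti-*Vegf*, and *Aldh1a1* was higher than with anti-*Vegf* (0.69). The promoter windows come from RefSeq (GRCr8). Alternatives were an ordinary variance, trend and robust moderation, array weights, only the compared groups, cyclic loess, centring on reference genes, a filter on low signals (above the 40th percentile on at least 4 arrays), the mean of or any of a gene's probe sets, Storey's q-value (lambda 0.5), the other fold limit and leaving out each array. The number of arrays limits the precision. Figures were drawn with matplotlib 3.10.9.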

Additional observations from a re-analysis of the deposited data

Results flagged for a closer look

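In 5 of 56 groups of 4 arrays (14 probe sets in 4 groups) 1 array stood apart from the other 3, with a gap to its neighbour, as a share of the group's whole range, above Dixon's 95% limit for 4 values; chance flags about 1 in 20 such groups. *Serpinb2* had its lowest dexamethasone signal on the array F27, 7.18 against 8.14 on the next array, with a gap of 0.88 of the range. *Plaur* was highest on the IgG array F22 on both of its probe sets, 7.97 against 7.26 on 1387269_s_at (0.83) and 4.74 against 4.42 on 1371286_at (0.98). The second probe set of *Plau* was lowest on the IgG array F19, with 7.79 against 8.71 (0.94), and the second of *Tfpi* was lowest on the IgG array F23, with 6.23 against 6.88 (0.88).

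The change from naïve corneas differed between treatments for 3 genes, by limma's test of the difference itself. Of all genes, 7.41% were called higher and 3.16% lower with dexamethasone than with IgG. With dexamethasone against anti-*Vegf* these shares were 4.63% and 2.5%. *Thbd* was higher with dexamethasone than with IgG (1.54 log2 units), and *Tfpi* (-0.69) and *Serpinb2* (-0.78) were lower. *Serpinb2* was also lower with dexamethasone than with anti-*Vegf* (-0.997). Each of these calls was lost under some alternative. The second probe set of *Tfpi* differed from IgG by -0.18 (limma, adjusted p = 0.59). The poly-A and *Gapdh* control signals differed between these groups as well.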

How the results depend on the processing

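The counts of called genes relative to naïve corneas stayed within 1.5 times their size under every alternative, with 6 for dexamethasone, 6 to 7 for anti-*Vegf* and 5 to 6 for IgG when each array was left out. Without the naïve arrays Cont_1 and Cont_2R together, chosen after the data were seen, they were 5, 6 and 5. Between dexamethasone and IgG the count was 1 with an ordinary variance and 1 to 3 when each array was left out; between dexamethasone and anti-*Vegf* it was 0 with an ordinary variance and with only the compared groups, 2 with averaged probe sets and with any probe set, and 0 to 1 when each array was left out; between anti-*Vegf* and IgG it was 0 each time. Of 1053 values of single genes, 987 kept their direction and their call, 23 lost the call, 12 gained one and 31 changed sign, none of them called. The cause was not tested. Sign changes were those of *Plat* when centred on 7 reference genes (-0.10 with dexamethasone, -0.15 with anti-*Vegf*, -0.10 with IgG relative to naïve corneas, -0.00062 for dexamethasone minus IgG) and under cyclic loess (-0.00105 for dexamethasone minus IgG), and with array weights those of *Plaur* (-0.044 for dexamethasone minus anti-*Vegf*) and *Plat* (0.021 for anti-*Vegf* minus IgG). The others arose when an array was left out. For *Plat* the values then ran from -0.0096 to 0.0499 with anti-*Vegf* and from -0.052 to 0.087 with IgG relative to naïve corneas, from -0.028 to 0.11 for dexamethasone minus IgG and from -0.073 to 0.066 for anti-*Vegf* minus IgG. For dexamethasone minus IgG they ran from -0.44 to 0.0201 for *Plaur*, from -0.051 to 0.45 for *Serpine2* and from -0.61 to 0.38 for *Tfpi2*. For dexamethasone minus anti-*Vegf* they ran from -0.14 to 0.082 for *Plau* and from -0.20 to 0.26 for *Plaur*, and for anti-*Vegf* minus IgG from -0.34 to 0.15 for *Serpine2* and from -0.10 to 0.90 for *Tfpi2*. After centring on the reference genes the median of all genes was -0.15 with dexamethasone, -0.17 with anti-*Vegf* and -0.12 with IgG relative to naïve corneas. Arrays give no counts, and signals under the 40th percentile bound what folds of *Serpinb2*, *Serpine2*, *Tfpi2* and the dimmer probe sets of *Thbd* and *Plaur* can say. The same holds for the list genes *F13a1*, *Fgb*, *F5*, *F2rl2* and *Serpinb3*.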
